A study of Homo sapiens with 6 samples.

Results

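The set described here holds 39 genes of glycolysis and of the hypoxia response. They were taken by symbol from the 16279 genes of the deposited tables, and all 39 were found. By role, 4 are transporters of glucose and lactate, 20 are glycolytic enzymes or regulators of them, 4 are subunits or oxygen-sensing hydroxylases of the hypoxia-inducible factor (HIF), and 11 are HIF targets outside glycolysis. The measurements came from 12Z, an established line of human endometriotic epithelial cells, so that all values describe a single line in culture. The Control group (n = 3) was left untreated and the rhChemerin group (n = 3) received recombinant human chemerin, an adipokine, at 10 ng/mL for 48 h. Both groups were grown in serum-containing medium, and no low-oxygen treatment is described. Each library was labelled a biological replicate and was sequenced as RNA-seq, with 35430881 to 38341643 counted reads per library.

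Glycolysis breaks glucose down to pyruvate in the cytosol, and lactate dehydrogenase reduces pyruvate to lactate when the cell does not pass it on to the mitochondrion. HIF is a pair of an alpha subunit (HIF1A or EPAS1) and a constant partner. In the presence of oxygen, prolyl hydroxylases of the EGLN family mark the alpha subunit for degradation, and without oxygen HIF enters the nucleus, binds the letters ACGTG or GCGTG in DNA and raises the transcription of many glycolytic genes. In the endometrium this response is known from menstruation and from endometriotic lesions.

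The promoters of LDHA, PKM and GAPDH are shown because these were the genes with the highest fold changes, and that of EGLN3 because it was the member with the lowest. Each window holds 250 bases before and 50 after a start site (RefSeq, GRCh38.p14), 5′ to 3′ on the strand of the gene, and LDHA has 2 such windows. Capitals mark the HIF core letters ACGTG or GCGTG, or CACGT or CACGC where the core lies on the other strand. CACGTG reads as a core on both strands and was counted on each.
LDHA (chr11:18394313-18394612, + strand): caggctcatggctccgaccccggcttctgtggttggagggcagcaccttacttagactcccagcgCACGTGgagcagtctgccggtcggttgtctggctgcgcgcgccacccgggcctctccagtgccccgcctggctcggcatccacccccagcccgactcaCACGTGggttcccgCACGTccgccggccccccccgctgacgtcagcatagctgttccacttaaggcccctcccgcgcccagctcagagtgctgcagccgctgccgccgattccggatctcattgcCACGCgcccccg
LDHA (chr11:18396101-18396400, + strand): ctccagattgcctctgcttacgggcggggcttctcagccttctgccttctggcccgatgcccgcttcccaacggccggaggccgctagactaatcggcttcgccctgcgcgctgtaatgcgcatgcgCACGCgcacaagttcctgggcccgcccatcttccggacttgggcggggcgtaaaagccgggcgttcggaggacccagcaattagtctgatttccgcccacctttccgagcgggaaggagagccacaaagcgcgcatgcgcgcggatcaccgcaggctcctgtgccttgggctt
PKM (chr15:72231141-72231440, - strand): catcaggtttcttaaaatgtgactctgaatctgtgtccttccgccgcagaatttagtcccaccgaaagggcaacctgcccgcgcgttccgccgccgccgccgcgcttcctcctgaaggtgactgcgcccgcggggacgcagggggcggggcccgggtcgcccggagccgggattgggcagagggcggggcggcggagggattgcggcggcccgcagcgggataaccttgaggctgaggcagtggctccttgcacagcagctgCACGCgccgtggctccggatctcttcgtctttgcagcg
GAPDH (chr12:6535014-6535313, + strand): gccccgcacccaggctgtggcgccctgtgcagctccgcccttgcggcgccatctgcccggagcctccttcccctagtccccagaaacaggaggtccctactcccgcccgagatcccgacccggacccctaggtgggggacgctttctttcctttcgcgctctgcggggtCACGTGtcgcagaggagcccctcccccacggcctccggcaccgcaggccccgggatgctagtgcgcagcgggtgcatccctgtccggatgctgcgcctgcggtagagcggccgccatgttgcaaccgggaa
EGLN3 (chr14:33951025-33951324, - strand): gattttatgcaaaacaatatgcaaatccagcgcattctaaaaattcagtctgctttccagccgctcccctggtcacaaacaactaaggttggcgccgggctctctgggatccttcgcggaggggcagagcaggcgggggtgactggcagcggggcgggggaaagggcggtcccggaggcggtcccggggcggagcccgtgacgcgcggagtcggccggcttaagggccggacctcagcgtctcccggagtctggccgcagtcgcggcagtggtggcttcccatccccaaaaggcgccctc

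The LDHA windows held 6 and 1 cores, the PKM window 1, the GAPDH window 2 and the EGLN3 window 0. Among members not shown, ALDOC held 5 and ANKRD37 held 3, and both had negative log2 fold changes. PGAM1 and P4HA2, which were higher, held 0. The HK2 windows held 3 and 6, though its groups overlapped. Windows were available for 35 of the 39 genes, several of them with more than 1 start site. At least 1 core lay in a window of 32 of these 35 genes (91.4%), against 52.4% of all 27305 genes with a window. Counted by window, 44 of 65 member windows (67.7%) and 48.4% of all 35116 windows held a core. Members had more windows per gene (65 for 35 genes, against 35116 for 27305), which raises the share by gene. The list was made of HIF genes and of glycolytic genes, many of which HIF is known to raise, so these shares are not a test. A match describes the letters in the window and not a bound site.

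With rhChemerin, most enzymes of the lower part of glycolysis stood higher in all 3 treated libraries than in any Control library, while the transporters and the HIF subunits did not separate. LDHA had the highest fold change of the set (2.03-fold), followed by PKM (1.89-fold) and GAPDH (1.86-fold). EGLN3, a HIF prolyl hydroxylase, was 2.96-fold lower. No member passed the main test, the quasi-likelihood test of edgeR, whose p-values were adjusted over 13311 genes by Benjamini-Hochberg (members from 0.0752 to 0.971) and which called 4 genes (0.0301%) in all. DESeq2, the tool of the study, gave an adjusted p under 0.05 to 9 members that were higher, against 3.75% of all genes, and to 1 member that was lower, against 5.30%. The study also required an absolute log2 fold change above 1, a cut not used here. Of these called members, only LDHA (1.02 by DESeq2) and EGLN3 (-1.57) lay beyond it. In counts relative to the library total (CPM) scaled by the trimmed mean of M values (TMM, which corrects for a shift shared by most genes), the groups did not overlap for 16 members that were higher, against 16.5% of genes, and for 1 that was lower, against 16.0%. Before adjustment, edgeR gave p under 0.05 to 16 higher members and 1 lower member, each direction against 11.4% of genes. These shares amounted to 41.0% of the members for the 16 and 23.1% for the 9. 3 against 3 libraries cannot reach an exact two-sided permutation p below 0.1.

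**Figure D1:**
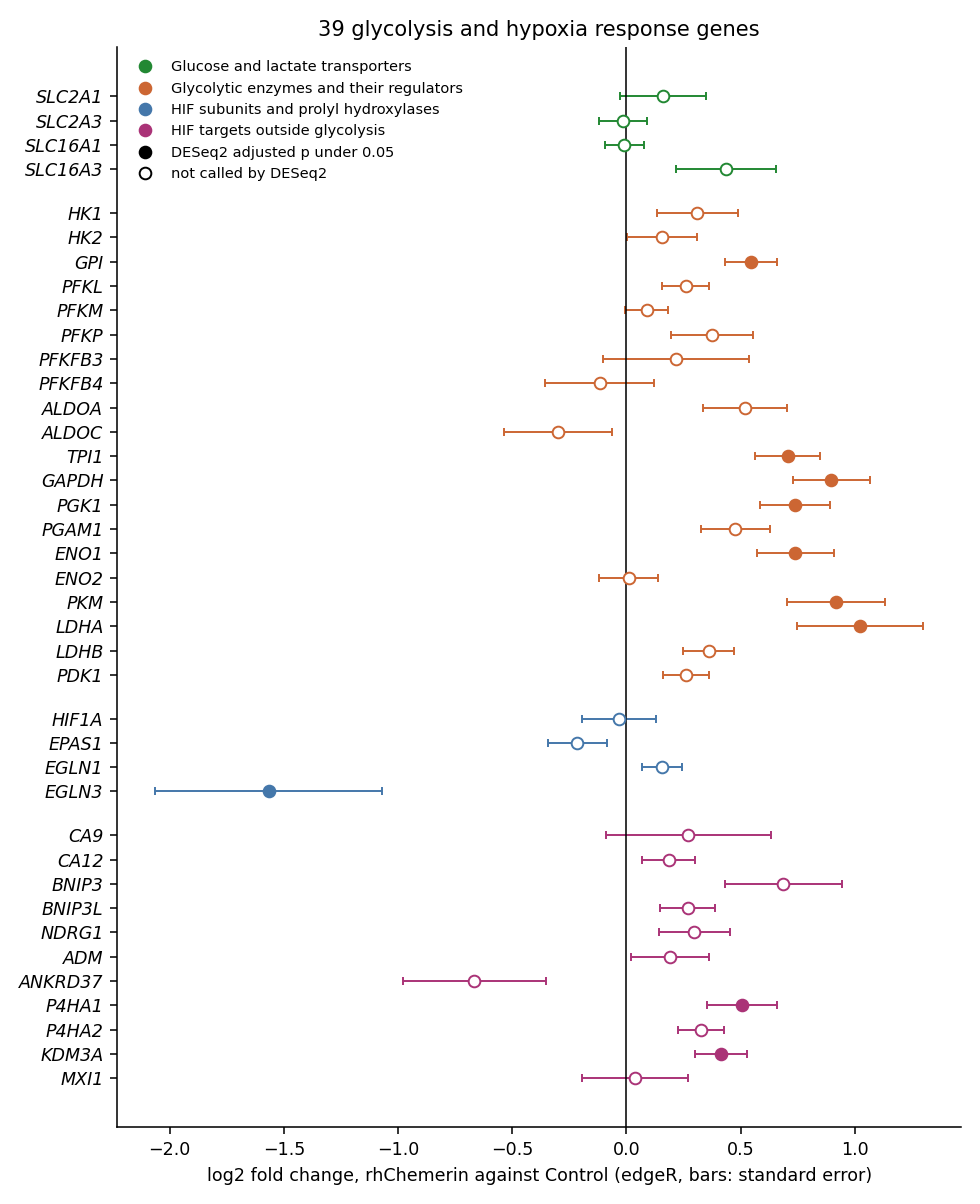
log2 fold change of the 39 genes (rhChemerin against Control, edgeR) with the standard error as bars, ordered by role, with filled points where DESeq2 gave an adjusted p under 0.05. The filled points are 7 glycolytic enzymes, P4HA1 and KDM3A on the right, and EGLN3 at -1.57 on the left.

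GAPDH, which oxidises glyceraldehyde phosphate, was the most abundant member (Gene ID 2597, chr12:6533927-6538374, + strand, GENCODE release 29 on GRCh38). Its level was 2681, 2814 and 2675 FPKM (fragments per kilobase, scaled to the library total) in Control replicates 1 to 3, and 3849, 4779 and 5196 FPKM in rhChemerin replicates 1 to 3. All 3 treated libraries lay above all 3 Control libraries, and the treated libraries spread more widely, with an SD of 689.7 against 78.9 FPKM (n = 3 each). The log2 fold change was 0.90 (standard error 0.17, edgeR adjusted p = 0.0752, DESeq2 adjusted p = 7.79e-06). By FPKM, GAPDH was the gene of rank 3, 3 and 4 in the Control libraries and of rank 2, 1 and 2 in the treated libraries. Its share of all counted reads was 0.399% to 0.420% in Control and 0.574% to 0.775% with rhChemerin. The 24 glycolysis and transport genes together took 1.43%, 1.49% and 1.499% of the reads in Control and 1.82%, 2.33% and 2.58% with rhChemerin.

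LDHA makes the muscle-type subunit of lactate dehydrogenase, which turns pyruvate into lactate (chr11:18394388-18408425, + strand). It was at 331, 358 and 389 FPKM in Control and at 422, 676 and 876 FPKM with rhChemerin. The treated libraries again lay above the Controls, with replicate 1 closest to them and replicate 3 the highest of the 6. Its log2 fold change was 1.02 (standard error 0.28, edgeR adjusted p = 0.118, DESeq2 adjusted p = 0.00386). LDHB, the heart-type subunit, was at 135, 134 and 146 FPKM in Control and 152, 158 and 174 FPKM with rhChemerin, groups that did not overlap either. Its log2 fold change was 0.36 (standard error 0.11, edgeR adjusted p = 0.135, DESeq2 adjusted p = 0.0598).

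PKM encodes pyruvate kinase of muscle and most proliferating cells, the enzyme of the last step to pyruvate (chr15:72199029-72231822, - strand). Its FPKM was 730.3, 712 and 754 in Control and 967, 1202 and 1582 with rhChemerin. The lowest treated library was above the highest Control. The log2 fold change was 0.92 (standard error 0.22, edgeR adjusted p = 0.1, DESeq2 adjusted p = 0.000834). ENO1, the ubiquitous enolase, which makes phosphoenolpyruvate, was at 748, 759 and 777 FPKM in Control and at 937, 1256 and 1275 FPKM with rhChemerin (log2 fold change 0.74, standard error 0.17, DESeq2 adjusted p = 0.000687). PGK1, the first of the pathway's enzymes to make ATP, was at 94.3, 106 and 100.3 FPKM in Control and 124, 180.0 and 154 FPKM with rhChemerin (log2 fold change 0.74, standard error 0.15, DESeq2 adjusted p = 0.0008). For both genes the groups stood apart, with rhChemerin replicate 1 nearest to Control.

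TPI1 interconverts the triose phosphates made by aldolase. It was at 460.4, 461 and 442 FPKM in Control and at 569, 722 and 732 FPKM with rhChemerin (log2 fold change 0.71, standard error 0.14, edgeR adjusted p = 0.0774, DESeq2 adjusted p = 0.00034). GPI turns glucose phosphate into fructose phosphate and was at 41.6, 43.4 and 43.0 FPKM in Control and 51.1, 59.2 and 60.03 FPKM with rhChemerin. Its log2 fold change was 0.55 (standard error 0.11, edgeR adjusted p = 0.0824, DESeq2 adjusted p = 0.00136). In both genes the Control libraries lay close together and every treated library was above them. PGAM1, the phosphoglycerate mutase between PGK1 and enolase, was at 175, 194 and 207 FPKM in Control and 214, 231 and 281 FPKM with rhChemerin, so that the groups stood apart by a small margin. Its log2 fold change was 0.48 (standard error 0.15, DESeq2 adjusted p = 0.0515).

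**Figure D2:**
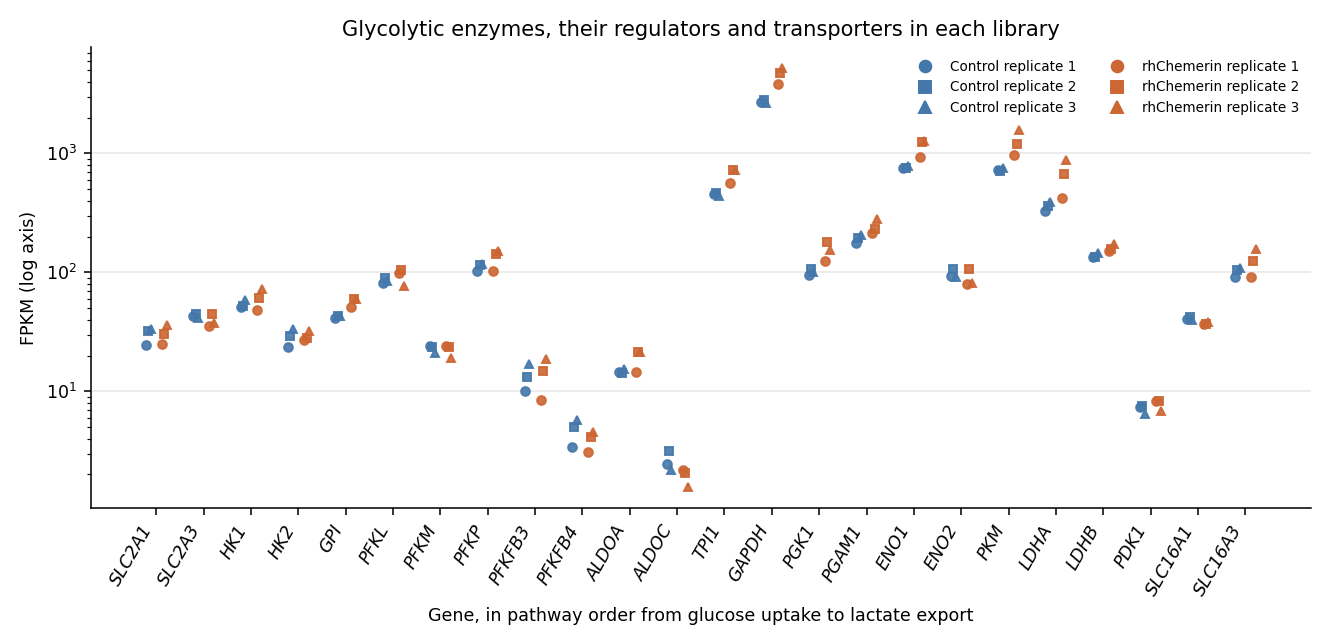
FPKM (log axis) of the 24 glycolysis and transport genes in each of the 6 libraries, from glucose uptake on the left to lactate export on the right, with Control in blue and rhChemerin in orange. The treated points lie above the Control points for GPI, TPI1, GAPDH, PGK1, PGAM1, ENO1, PKM, LDHA and LDHB, below them for ALDOC and SLC16A1, and among them for the other genes.

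At the entry to the pathway the libraries overlapped. SLC2A1 encodes GLUT1, the basal glucose carrier, and was at 24.7, 31.9 and 33.5 FPKM in Control and 25.0, 30.1 and 36.1 FPKM with rhChemerin. Its 2 groups covered nearly one range, with a log2 fold change of 0.16 (standard error 0.19, edgeR adjusted p = 0.627), which was -0.04 without rhChemerin replicate 3. SLC2A3, the high-affinity carrier GLUT3, averaged 43.1 ± 1.85 FPKM in Control and 38.99 ± 4.66 FPKM with rhChemerin (SD, n = 3 each). Hexokinases phosphorylate glucose, and of these HK1 averaged 54.1 ± 4.03 and 60.8 ± 12.0 FPKM and HK2 28.8 ± 4.78 and 29.2 ± 2.71 FPKM (Control and rhChemerin, SD, n = 3 each). Among the phosphofructokinases, which commit the sugar to glycolysis, the muscle form PFKM averaged 22.9 ± 1.68 and 22.3 ± 2.74 FPKM and the platelet form PFKP 112 ± 8.28 and 132 ± 26.3 FPKM in the same order (SD, n = 3 each). None of these 4 enzymes separated the groups.

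PFKL, the liver form of phosphofructokinase, was at 81.4, 89.0 and 84.6 FPKM in Control and 98.1, 104 and 77.5 FPKM with rhChemerin. In the deposited FPKM replicate 3 of the treated group was thus the lowest of the 6 libraries, while in TMM-scaled CPM the groups did not overlap and the log2 fold change was 0.26 (standard error 0.10, edgeR adjusted p = 0.193). PDK1, a kinase that switches off pyruvate dehydrogenase, also overlapped in FPKM and not in TMM-scaled CPM, with 7.35, 7.52 and 6.47 FPKM in Control and 8.28, 8.35 and 6.81 FPKM with rhChemerin (log2 fold change 0.26, standard error 0.10). PFKFB3 and PFKFB4 make and break the sugar phosphate that activates phosphofructokinase. PFKFB3 averaged 13.4 ± 3.44 FPKM in Control and 14.0 ± 5.17 FPKM with rhChemerin, and PFKFB4 averaged 4.70 ± 1.17 and 3.93 ± 0.776 FPKM (SD, n = 3 each). Both had rhChemerin replicate 1 as their lowest library.

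Aldolase splits the sugar into a pair of triose phosphates. ALDOA was at 14.6, 14.2 and 15.4 FPKM in Control and at 14.4, 21.6 and 21.6 FPKM with rhChemerin, so that replicate 1 stayed among the Controls (log2 fold change 0.52, standard error 0.19, edgeR adjusted p = 0.169). The low level of ALDOA is uncertain, because in RefSeq the gene (chr16:30064279-30070420) overlaps the longer LOC112694756 (chr16:30053151-30070414) on the same strand, and reads shared by both may have been dropped or assigned to either. LOC112694756 itself held 293 to 383 counts per library. ALDOC, the brain form, averaged 2.60 ± 0.496 FPKM in Control and 1.94 ± 0.336 FPKM with rhChemerin (SD, n = 3 each). ENO2, the neuronal enolase, averaged 97.4 ± 8.38 and 89.6 ± 15.4 FPKM (SD, n = 3 each), and its direction was not settled, with a log2 fold change of 0.01 (standard error 0.13) that turned to -0.12 on library size only.

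At the exit, the lactate carriers did not separate in TMM-scaled CPM. SLC16A3 encodes MCT4, which exports lactate, and averaged 101 ± 9.32 FPKM in Control and 124 ± 32.5 FPKM with rhChemerin (SD, n = 3 each, log2 fold change 0.44, standard error 0.22, edgeR adjusted p = 0.273). SLC16A1 encodes MCT1 and averaged 41.1 ± 1.28 and 37.3 ± 0.786 FPKM in the same order, with a log2 fold change of -0.01 (standard error 0.08, edgeR adjusted p = 0.958). Its treated libraries were all lower in the deposited FPKM but not after TMM scaling.

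The treated libraries differed among themselves in a way shared by most of these genes. Of the 16 members whose groups did not overlap upwards, 13 had their lowest treated value in rhChemerin replicate 1 and 10 their highest in replicate 3. Relative to the Control mean, the median of the 20 enzymes and regulators was 0.22, 0.39 and 0.68 on the log2 scale in rhChemerin replicates 1, 2 and 3, and between -0.05 and 0.03 in the Control libraries. For the 4 transporters these medians were -0.14, 0.13 and 0.31. For the 11 HIF targets they were 0.07, 0.44 and 0.35.

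**Figure D3:**
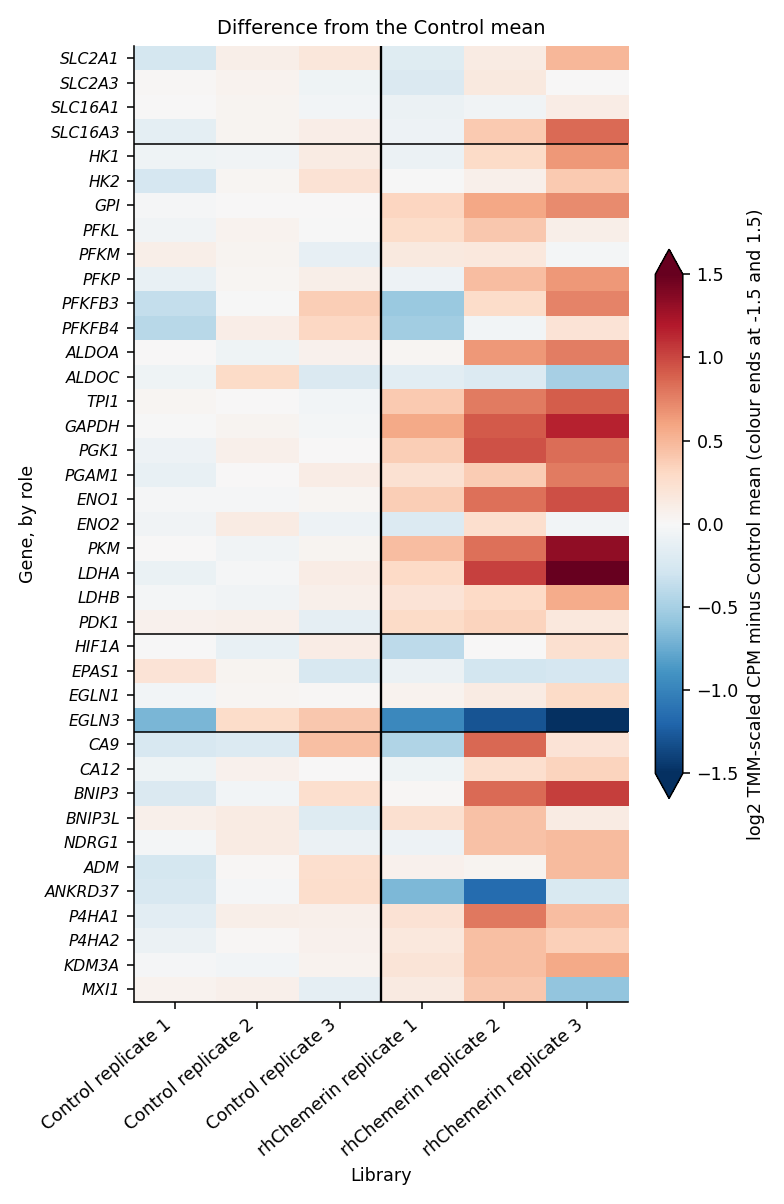
Each of the 39 genes (rows, grouped by role) in each of the 6 libraries (columns), as the log2 TMM-scaled CPM minus the Control mean, red where higher and blue where lower. Of the 16 genes that stand apart upwards, 13 are palest among the treated libraries in replicate 1, and EGLN3 is blue in all 3.

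Leaving out rhChemerin replicate 1 or 3 changed the calls. Without rhChemerin replicate 1, edgeR called 12 members, all higher (GPI, PFKP, ALDOA, TPI1, GAPDH, PGK1, ENO1, PKM, LDHA, BNIP3, P4HA1 and KDM3A), and 6.24% of all genes. Without rhChemerin replicate 3 it called GPI, TPI1, GAPDH and PKM, and 3.07% of all genes. With any other library left out it called 0 members and 0 genes in all, with 10 to 14 members at p under 0.05 before adjustment, among 1666 to 2190 genes in all, and DESeq2 called 5 to 7 members among 283 to 658 genes in all. DESeq2 called TPI1, GAPDH, PGK1, ENO1 and PKM in all 6 such runs, GPI in 5, LDHA in 4, and EGLN3, P4HA1 and KDM3A in 2 each. LDHA's log2 fold change was 0.70 without rhChemerin replicate 3 and 1.27 without replicate 1.

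Abundant genes were higher with rhChemerin in general, which stands beside every count above. Over all genes tested, the median log2 fold change was 0.01. It was -0.37 over the 2280 genes with a mean under 1 FPKM, -0.03 from 1 to 10 FPKM, 0.08 from 10 to 100 FPKM, and 0.25 over the 542 genes at 100 FPKM and above. In this last class the groups did not overlap upwards for 55.2% of the genes and for 8 of 11 members, and DESeq2 called 26.0% of the genes and 6 of 11 members higher. The median of these 11 members was 0.71. From 10 to 100 FPKM, 23.9% of the genes and 6 of 21 members did not overlap upwards, and the members' median was 0.19. The part of expression level in the members' fold changes was not tested.

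**Figure D4:**
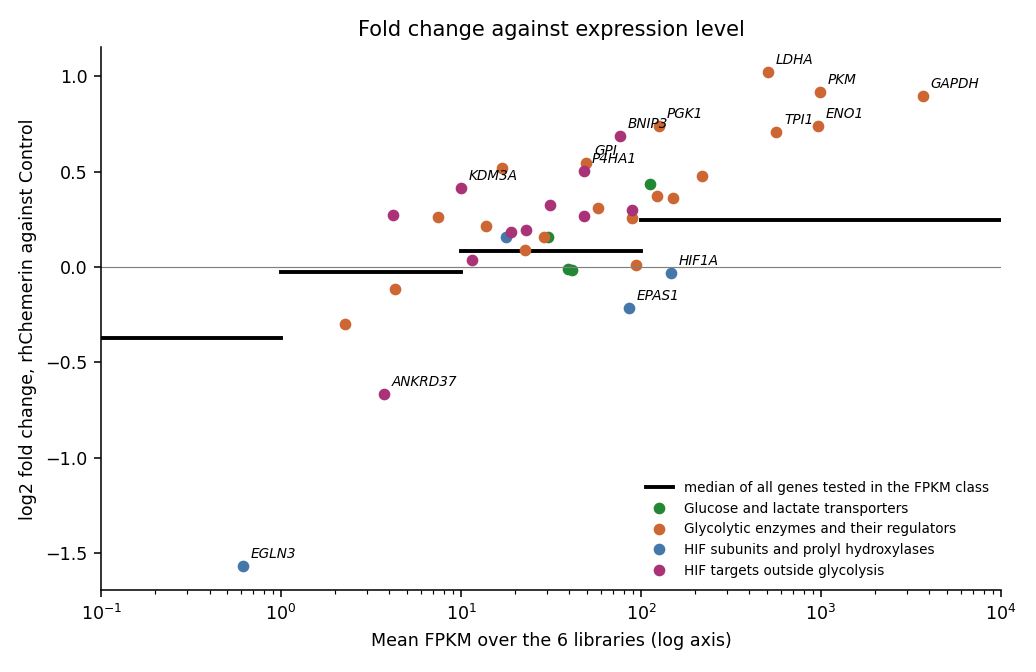
log2 fold change of the 39 genes against their mean FPKM over the 6 libraries (log axis), coloured by role, with the median of all genes tested in each FPKM class as a black line. LDHA, PKM, GAPDH, ENO1, TPI1 and PGK1 lie above the line of their class at 0.25, while HIF1A and EPAS1 lie below theirs.

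The scale of the libraries also bears on these counts. In the deposited FPKM, without further scaling, the groups did not overlap for 12 members that were higher and 4 that were lower, against 7.36% and 25.1% of all genes tested. On library size only, the median of all genes moved from 0.01 to -0.12, and that of the 24 glycolysis and transport genes from 0.34 to 0.20. A change of scale shifts every gene by about the same amount. That the distance to all genes was about the same on both scales follows from this and is not a test. Of the 24, 20 had a positive log2 fold change after TMM scaling and 4 a negative one, against 6886 and 6425 of all 13311 genes tested. With bulk RNA, more RNA per cell and more cells with that RNA cannot be told apart.

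The transcripts of the HIF alpha subunits overlapped between the groups. HIF1A, the alpha subunit that responds to low oxygen in most cells, was at 154, 145 and 168 FPKM in Control and 113, 144 and 157 FPKM with rhChemerin. The ranges overlapped, and the log2 fold change was -0.03 (standard error 0.16, edgeR adjusted p = 0.921). It was 0.11 without rhChemerin replicate 1 and -0.19 without replicate 3. EPAS1, which encodes HIF-2 alpha, was at 108, 98.5 and 80.0 FPKM in Control and 85.1, 72.6 and 68.6 FPKM with rhChemerin. Only the lowest Control library lay inside the treated range, and the log2 fold change was -0.21 (standard error 0.13, edgeR adjusted p = 0.348). HIF activity is set mainly at the protein level, which these data do not measure.

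EGLN3, itself known as a target of HIF, was the member with the lowest level (chr14:33924231-34462774, - strand). It was at 0.542, 1.09 and 1.19 FPKM in Control and 0.424, 0.326 and 0.128 FPKM with rhChemerin, from 52, 108 and 116 counts and 44, 32 and 13 counts. The groups did not overlap, but Control replicate 1 lay close to the treated libraries. The log2 fold change was -1.57 (standard error 0.50, edgeR adjusted p = 0.142, DESeq2 adjusted p = 0.0319). In its abundance class, under 1 FPKM, 25.9% of the genes did not overlap downwards. EGLN1, the main oxygen sensor of the family, was at 16.9, 18.1 and 17.8 FPKM in Control and 17.5, 17.8 and 18.4 FPKM with rhChemerin, values that overlap in FPKM and stand apart by a small margin in TMM-scaled CPM. Its log2 fold change was 0.16 (standard error 0.09, edgeR adjusted p = 0.325).

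Of the 11 HIF targets outside glycolysis, 10 had a positive log2 fold change, 2 were called higher by DESeq2, and 4 did not overlap upwards. Over all genes, 6886 of 13311 had a positive log2 fold change, DESeq2 called 3.75% higher, and 16.5% did not overlap upwards. P4HA1 and P4HA2 encode the catalytic subunits of the prolyl hydroxylase that modifies collagen. P4HA1 was at 37.2, 44.8 and 44.1 FPKM in Control and 46.3, 67.6 and 49.4 FPKM with rhChemerin (log2 fold change 0.51, standard error 0.15, edgeR adjusted p = 0.135, DESeq2 adjusted p = 0.0467). P4HA2 was at 27.3, 29.8 and 30.6 FPKM in Control and 31.1, 37.2 and 32.0 FPKM with rhChemerin (log2 fold change 0.33, standard error 0.10, DESeq2 adjusted p = 0.0686). KDM3A, a histone demethylase, was at 8.81, 8.86 and 9.37 FPKM in Control and 9.88, 11.5 and 11.5 FPKM with rhChemerin (log2 fold change 0.41, standard error 0.11, edgeR adjusted p = 0.119, DESeq2 adjusted p = 0.0372). All 3 genes stood apart by small margins, with rhChemerin replicate 1 next to the highest Control.

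BNIP3 and BNIP3L encode receptors that direct mitochondria to autophagy. BNIP3 was at 52.4, 60.2 and 73.3 FPKM in Control and at 59.4, 103 and 108 FPKM with rhChemerin, with replicate 1 inside the Control range (log2 fold change 0.69, standard error 0.26, edgeR adjusted p = 0.178). BNIP3L was at 47.6, 49.7 and 39.7 FPKM in Control and 51.3, 57.4 and 42.6 FPKM with rhChemerin, which overlap in FPKM but not in TMM-scaled CPM (log2 fold change 0.27, standard error 0.12). ANKRD37, an ankyrin repeat protein, was the target with a negative value, averaging 4.77 ± 0.854 FPKM in Control and 2.72 ± 0.758 FPKM with rhChemerin (SD, n = 3 each, log2 fold change -0.67, standard error 0.31, edgeR adjusted p = 0.251). Its treated libraries were lower than the Controls in FPKM and overlapped with them after TMM scaling.

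The other targets overlapped between the groups. The carbonic anhydrases CA9 and CA12, which handle acid at the cell surface, averaged 3.96 ± 1.16 and 18.5 ± 0.955 FPKM in Control and 4.37 ± 1.98 and 19.2 ± 1.99 FPKM with rhChemerin (SD, n = 3 each). CA9, the target most often used as a marker of hypoxia, thus stood at a few FPKM in both groups. NDRG1, a stress-induced differentiation gene, averaged 83.8 ± 7.16 and 93.5 ± 15.5 FPKM, and ADM, which encodes the vasodilator adrenomedullin, 22.5 ± 4.09 and 23.4 ± 2.74 FPKM in the same order. MXI1, an antagonist of MYC, averaged 11.7 ± 0.935 and 11.1 ± 4.01 FPKM, with a log2 fold change of 0.04 (standard error 0.23) that was -0.19 without rhChemerin replicate 2. The median log2 fold change was 0.19 over the 15 HIF genes, 0.34 over the 24 glycolysis and transport genes, and 0.01 over all genes tested.

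Ratios between related genes within a library do not depend on library scaling, and 13 pairs were compared. The ratio of LDHA to LDHB was 2.46, 2.68 and 2.67 in Control and 2.78, 4.29 and 5.03 with rhChemerin. The ratio of ENO1 to ENO2 was 8.05, 7.09 and 8.43 in Control and 11.6, 11.7 and 15.8 with rhChemerin. The ratio of EGLN3 to EGLN1 was 0.0321, 0.0601 and 0.0668 in Control and 0.0243, 0.0184 and 0.00699 with rhChemerin. These 3 pairs did not overlap, each with p = 0.1 in the exact two-sided permutation test, the smallest it allows, and an adjusted p of 0.433 over the 13 pairs. No share over other pairs of genes was computed to set beside the 3 of 13. In each of the 3, the more abundant gene had the higher log2 fold change. Abundant genes were higher in general, and the part of expression level in these ratios was not tested. The other 10 overlapped, among them HK2 to HK1, which was 0.467 to 0.568 in Control and 0.445 to 0.562 with rhChemerin, and HIF1A to EPAS1, which was 1.43 to 2.10 and 1.33 to 2.30.

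**Figure D5:**
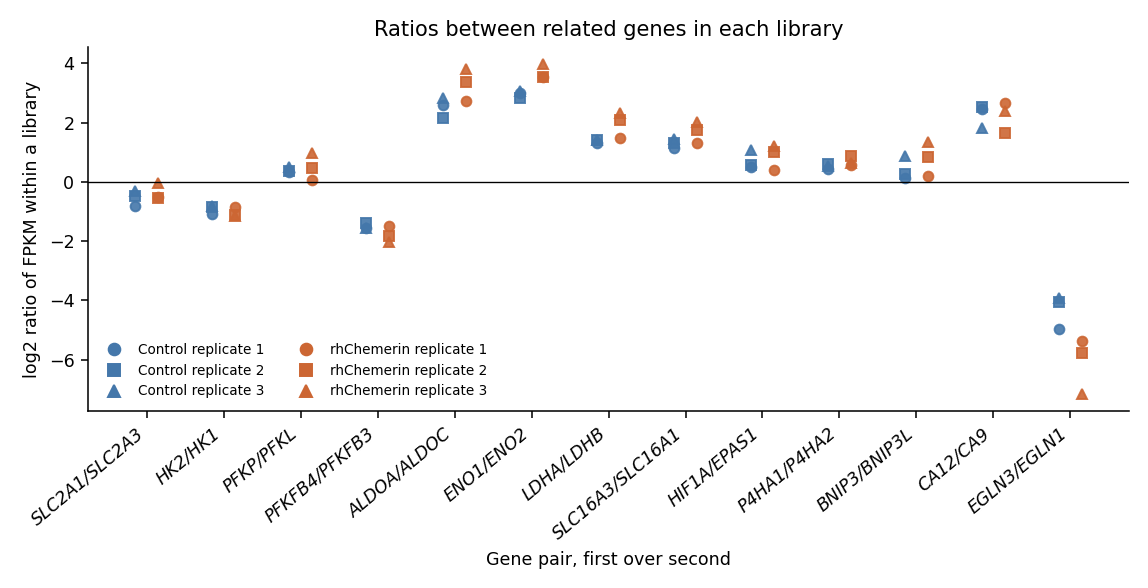
log2 ratio of the FPKM of 13 pairs of related genes in each library, Control in blue and rhChemerin in orange. The groups stand apart for ENO1/ENO2 and LDHA/LDHB, which are higher with rhChemerin, and for EGLN3/EGLN1, which is lower.

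Other genes of the same pathways were mixed in direction, and edgeR called 0 of them after adjustment. Over all genes, DESeq2 called 3.75% higher and 5.30% lower, and edgeR gave p under 0.05 before adjustment to 11.4% in each direction. Of 18 further glycolysis isozymes and regulators in the tables, 13 could be tested, and their log2 fold changes had a median of -0.34, with 0 called by either tool (edgeR at p under 0.05 before adjustment, 0 higher and 3 lower). Of 12 further glucose and monocarboxylate carriers tested, DESeq2 called 0 higher and 3 lower. SLC2A6, a carrier of lysosomal membranes, was at 15.3, 16.1 and 15.6 FPKM in Control and 8.44, 7.24 and 10.05 FPKM with rhChemerin, and every treated library was lower. Its log2 fold change was -0.73 (standard error 0.15, edgeR adjusted p = 0.084, DESeq2 adjusted p = 0.00178). SLC2A14, a near copy of SLC2A3, had a log2 fold change of -2.61 from 3 to 46 counts per library, and SLC2A10 one of -1.003 (DESeq2 adjusted p = 0.00567 and 0.0356, edgeR adjusted p = 0.0824 and 0.155). Of 14 genes for the entry of pyruvate into the mitochondrion, DESeq2 called 0 higher and 0 lower, and edgeR gave p under 0.05 before adjustment to 2 higher and 1 lower.

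FBP1, the enzyme of gluconeogenesis that works against phosphofructokinase, was at 2.01, 2.89 and 2.71 FPKM in Control and 0.649, 0.441 and 0.349 FPKM with rhChemerin. All treated libraries were below all Controls, and the log2 fold change was -2.28 (standard error 0.32, edgeR adjusted p = 0.0692, DESeq2 adjusted p = 1.74e-08), from 22 to 179 counts. In the list of 10 gluconeogenesis and glycogen genes tested, DESeq2 called FBP1 lower and 2 genes higher. The first of the higher genes was GBE1, the glycogen branching enzyme (log2 fold change 0.52, standard error 0.14, edgeR adjusted p = 0.119, DESeq2 adjusted p = 0.0246). The other was GYS1, a glycogen synthase (0.48, standard error 0.15, edgeR adjusted p = 0.135, DESeq2 adjusted p = 0.0496). In the pentose phosphate pathway, DESeq2 called 1 of 10 genes, the transketolase TKT. TKT averaged 264 ± 40.1 FPKM in Control and 176 ± 27.1 FPKM with rhChemerin (SD, n = 3 each). Its log2 fold change was -0.46 (standard error 0.14, edgeR adjusted p = 0.141, DESeq2 adjusted p = 0.0441).

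The calls in the wider HIF lists stand beside those over all genes, of which DESeq2 called 3.75% higher and 5.30% lower. Before adjustment, edgeR gave p under 0.05 to 11.4% of genes in each direction, and it called 0 genes of these lists after adjustment. Of 15 further HIF pathway components tested, DESeq2 called 0, and edgeR gave p under 0.05 before adjustment to 3 higher and 1 lower, with a median log2 fold change of 0.14. Of 33 further HIF targets, DESeq2 called 1 higher and 1 lower, with a median of 0.11. The one higher was LOX, the collagen cross-linking lysyl oxidase, at 46.2, 48.1 and 63.5 FPKM in Control and 64.1, 109 and 85.7 FPKM with rhChemerin. Its log2 fold change was 0.85 (standard error 0.22, edgeR adjusted p = 0.108, DESeq2 adjusted p = 0.00507). The one lower was INSIG2, a regulator of sterol synthesis, with a log2 fold change of -0.62 (standard error 0.14, edgeR adjusted p = 0.0948, DESeq2 adjusted p = 0.00478). Of the genes that the tables annotate to the KEGG pathways of glycolysis and of HIF-1 signalling, members left out, 30 and 68 were tested, with medians of -0.09 and 0.03, and DESeq2 called 1 and 2 higher and 3 and 3 lower.

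Several members share sequence or position with other genes, which may leave their values uncertain. In GENCODE release 29, 16 members have named pseudogenes, among them GAPDH with 62, BNIP3 with 39, PGAM1 with 13, LDHA with 6 and PKM with 5, and no row of the tables belongs to any of these. Exons of 24 members overlap those of another gene. The largest shares were ALDOA with AC093512.2 on the same strand (42.3% of its exon bases), CA9 with ARHGEF39 on the opposite strand (38.5%), ANKRD37 with UFSP2 on the opposite strand (35.2%) and LDHB with AC010197.2 on the same strand (33.4%). Neither the annotation release nor the strand setting used for counting is given in the sources used here. The authors mapped to the NCBI genome GRCh38.p13, so the genes of GENCODE need not be those counted. How reads of such pairs were assigned is therefore unknown.

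The cells bore epithelial keratins together with stromal genes in both groups. KRT8, KRT18 and KRT19 were at 277 to 966 FPKM in every library, while a further keratin, KRT7, was at 1.19 to 2.01 FPKM. CDH1 and EPCAM, which define most epithelia, were under 1 FPKM in every library. The hormone receptors ESR1, ESR2 and PGR had 2 to 19, 4 to 16 and 145 to 291 counts per library. In immunoblots of these cells, the study detected E-cadherin (the CDH1 protein), oestrogen receptors alpha and beta and the progesterone receptor. Of 8 stromal or fibroblast markers, COL1A1 was at 728 to 1165 FPKM, and the summed level of the 8 was 2170 to 2295 FPKM in Control and 3002 to 4099 FPKM with rhChemerin, with 2 called higher and 1 lower by DESeq2. VIM, the mesenchymal filament gene in that list, was at 827 to 991 FPKM in Control and 1507 to 3247 FPKM with rhChemerin. The other 7 summed to 1414, 1345 and 1179.7 FPKM in Control and 1495, 1212 and 853 FPKM with rhChemerin, which overlap, with replicate 3 the lowest of the 6 libraries. No stromal marker was at 0 in any library. VIM thus carried the difference in the sum, and its part in the enzymes' values was not tested. Of 4 immune markers, CD14 was lower, at 51.5, 41.1 and 36.9 FPKM in Control and 21.2, 15.2 and 6.64 FPKM with rhChemerin (DESeq2 adjusted p = 0.000432, edgeR adjusted p = 0.1), while the sum of the 4, most of it CD68, was 122 to 172 and 92.9 to 136 FPKM. The epithelial marker MUC1 averaged 12.7 ± 2.20 FPKM in Control and 7.85 ± 1.73 FPKM with rhChemerin (SD, n = 3 each, DESeq2 adjusted p = 0.0404, edgeR adjusted p = 0.135). The 4 endothelial markers summed to 1.61 to 2.01 FPKM in Control and 0.991 to 1.41 FPKM with rhChemerin. PTPRC, which defines leukocytes, had 4 to 12 counts per library.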

How the data were processed

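RNA-seq was made of 12Z cells, with 3 Control and 3 rhChemerin libraries of 35430881 to 38341643 counted reads. The authors extracted RNA with TRIzol, prepared libraries with the VAHTS Universal V6 kit, sequenced paired reads of 150 bp, trimmed them with fastp, mapped them to GRCh38.p13 with HISAT2 and counted them with HTSeq. The annotation release, the strand setting and the treatment of multiply mapped reads are not given in the sources used here. The authors deposited raw counts and the FPKM of the same 16279 genes, which could be rebuilt from the counts, 1 length per gene and the library totals in 100% of 79491 values with 10 or more counts (within 2%).

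Counts were filtered with filterByExpr (13311 genes kept, all 39 members among them), scaled by TMM and tested with edgeR 4.0.16 (quasi-likelihood, group only, Benjamini-Hochberg over all genes tested, threshold 0.05). Alternatives were DESeq2 1.42.0 with its defaults on all rows (14382 genes with an adjusted p), other scaling factors and filters, limma 3.58.1 with trend on the log2 of FPKM plus 1 or plus 0.1, the replicate number as a block, and each library left out. Log2 fold changes are rhChemerin minus Control, FPKM errors are SDs, and p-values rest on the spread between 3 libraries a group. Fits were tested on simulated counts. Isozyme ratios were compared with exact permutation tests (scipy 1.17.1) and positions taken from GENCODE release 29 and RefSeq. The members and lists were chosen with earlier results of these data known. A member is given in every library where the groups did not overlap, where edgeR gave p under 0.05 before adjustment, where either tool called it, or where it is HIF1A, EPAS1, SLC2A1 or LDHA. From other lists, at most 4 called genes are named, in order of edgeR p.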

Additional observations from a re-analysis of the deposited data

How the results depend on the processing

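Over the 39 members and 15 alternatives, 529 fold changes kept their direction and their side of the threshold, 26 passed the threshold and 30 turned direction. edgeR called 0 members and DESeq2 called 10. Leaving out each library in turn, edgeR called between 0 and 12 members among 0 to 844 genes in all, and DESeq2 between 5 and 20 among 283 to 2616. Of the latter, between 5 and 19 members were higher, among 83 to 1214 genes. These DESeq2 runs were added after the data had been seen. The median of the glycolysis and transport genes ran from 0.18 (limma on log2(FPKM + 1)) to 0.48 (without rhChemerin replicate 1) and that of the HIF genes from 0.05 (library size only) to 0.28 (without rhChemerin replicate 1).

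The members that turned direction under some alternative had a main log2 fold change between -0.12 (PFKFB4) and 0.27 (CA9), each smaller than its standard error. On library size only, the log2 fold change was -0.037 for PFKM, -0.12 for ENO2 and -0.077 for MXI1. With limma on log2(FPKM + 1) and log2(FPKM + 0.1), it was -0.040 and -0.041 for PFKM, -0.13 and -0.13 for ENO2, and -0.13 and -0.15 for MXI1. ENO2 was at -0.034 with upper quartile factors and -0.0009 with the CPM filter. Leaving out each library in turn, it ran from -0.04 to 0.30 for SLC2A1, -0.11 to 0.069 for SLC2A3, -0.12 to 0.49 for PFKFB3, -0.30 to 0.051 for PFKFB4, -0.13 to 0.10 for ENO2, -0.077 to 0.022 for SLC16A1, -0.19 to 0.11 for HIF1A, -0.13 to 0.54 for CA9 and -0.19 to 0.27 for MXI1. Among the log2 ratios, the difference between the groups then ran from -0.14 to 0.31 for PFKP to PFKL, -0.011 to 0.38 for HIF1A to EPAS1 and -0.26 to 0.26 for CA12 to CA9.

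Same-numbered libraries did not deviate together in every pair (r of 0.24, 0.0015 and 0.25 over 13311 genes). Across numbers, r was -0.19 for Control replicate 1 with rhChemerin replicate 3. It was -0.31 for Control replicate 3 with rhChemerin replicate 1, and from -0.091 to 0.11 for the remaining crossed pairs. The main test did not use the numbers as pairs, and why replicates 1 and 3 differed in this way was not tested. With the replicate block, 0 members were called by edgeR and 20 had p under 0.05 before adjustment, among 3367 genes in all, against 17 among 3038 without it, and MXI1 turned to -0.014.

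Counts of 13 to 116 for EGLN3 limit its precision, while the 7 enzymes called by DESeq2 rest on at least 16084 counts per library. Levels of RNA do not give enzyme activity, lactate or HIF protein. The treatment was given at 1 dose and 1 time in 1 cell line.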

Other observations

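The genes named here were chosen after their values were seen, because they are HIF-related targets that stood apart in 1 library. They were not alone in this. Among the further HIF targets, PLIN2, TFRC and VEGFA were also highest by FPKM in rhChemerin replicate 3, while others such as LOX were not. ANGPTL4, a secreted lipase inhibitor, was at 0.346, 1.53 and 2.11 FPKM in Control and at 0.534, 1.79 and 62.4 FPKM in rhChemerin replicates 1 to 3. HMOX1, the inducible heme oxygenase, was at 28.8, 32.4 and 25.7 FPKM in Control and at 22.1, 19.9 and 144 FPKM with rhChemerin. Without rhChemerin replicate 3 their log2 fold changes were -0.11 and -0.38, against 4.23 and 1.29 with it (edgeR adjusted p = 0.201 and 0.339).

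Genes often used as references were also looked up after their values were seen. ACTB, the reference of the study's qPCR, was at 3690, 3404 and 3663 FPKM in Control and at 3874, 3674 and 5512 FPKM with rhChemerin (log2 fold change 0.42, standard error 0.21, edgeR adjusted p = 0.273), or 0.16 without rhChemerin replicate 3. GAPDH, whose protein served as the loading control of its immunoblots, had the higher log2 fold change of the pair at 0.90, or 0.75 without that replicate. Protein was not measured in these data.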
